A study of Mus musculus with 6 samples.

Results

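The genes described here are the receptors for the colony-stimulating factors, the ligands of the CSF1 receptor and the IL-3 receptor alpha chain, as measured by RNA-seq in microglia from lupus-prone and control mice. They were taken by symbol as Csf1r, Csf1, Il34, Csf2ra, Csf2rb, Csf2rb2, Csf3r and Il3ra. All 8 were found among the 55401 Ensembl identifiers of the count matrix, and all 8 passed the filter on low counts. Microglia, the resident macrophages of the brain, were isolated on a Percoll gradient and by magnetic selection for CD11b, a surface protein that other myeloid cells also carry. The lpr mutation of Fas, a death receptor of lymphocytes, is carried by MRL/lpr mice, which develop a lupus-like disease, while MRL/mpj mice share the MRL background without that mutation and served as controls. Both strains were untreated and 6 weeks old according to the labels, and 3 libraries were sequenced from each. The labels do not say whether a library came from 1 mouse or from several, so p-values measure only the spread between these libraries, which may be partly technical.

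Colony-stimulating factors are secreted proteins that keep myeloid cells alive and direct their growth and maturation. CSF1R, a receptor tyrosine kinase, binds CSF1 and IL-34, and its signal is needed for microglia to survive in the adult brain, where neurons are the known source of IL-34. The receptors for GM-CSF, IL-3 and IL-5 are built differently. Each joins its own alpha chain, which recognises the cytokine, to a beta chain without kinase activity of its own, which works through JAK2 and STAT5. Mice have a common beta chain, encoded by Csf2rb, and a closely related beta chain that serves IL-3, encoded by Csf2rb2. CSF3R, the G-CSF receptor, acts as a pair of identical chains and is best known from neutrophils.

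Il3ra, the alpha chain of the IL-3 receptor, showed the largest difference between the strains among the 8 genes. Its level was 20.04 ± 4.72 CPM in MRL/lpr libraries and 3.67 ± 0.698 CPM in MRL/mpj libraries (SD, n = 3 each), a 5.46-fold difference. CPM are counts scaled to library size and corrected by TMM, which sets libraries on a common scale through the bulk of their genes. Csf2ra, the alpha chain of the GM-CSF receptor, was 1.95-fold higher in MRL/lpr libraries, and Csf1 was 1.31-fold higher. Il34 was 1.89-fold lower. Csf1r, 4th among the tested genes by mean CPM, had nearly the same mean in both strains. In a quasi-likelihood test with edgeR, with p-values adjusted by Benjamini-Hochberg and a limit of 0.05, 4 of the 8 genes were higher in MRL/lpr libraries (Il3ra, Csf2ra, Csf1 and Csf2rb2), 1 was lower (Il34) and 3 did not pass (Csf1r, Csf2rb and Csf3r). Over the 19554 genes tested, 20.2% passed, 11.1% of all as higher and 9.06% as lower. A log2 fold change of at least 1 or at most -1 was required in addition to call a gene differentially expressed, and Il3ra was the only one of the 8 to meet it, against 8.34% of the genes tested, 4.67% of all as higher and 3.66% as lower. The ranges of the strains did not overlap in 6 of the 8 genes, against 39% of the genes tested. The median log2 fold change of the 8 genes was 0.21, and that of all genes tested was -0.01.

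**Figure D1:**
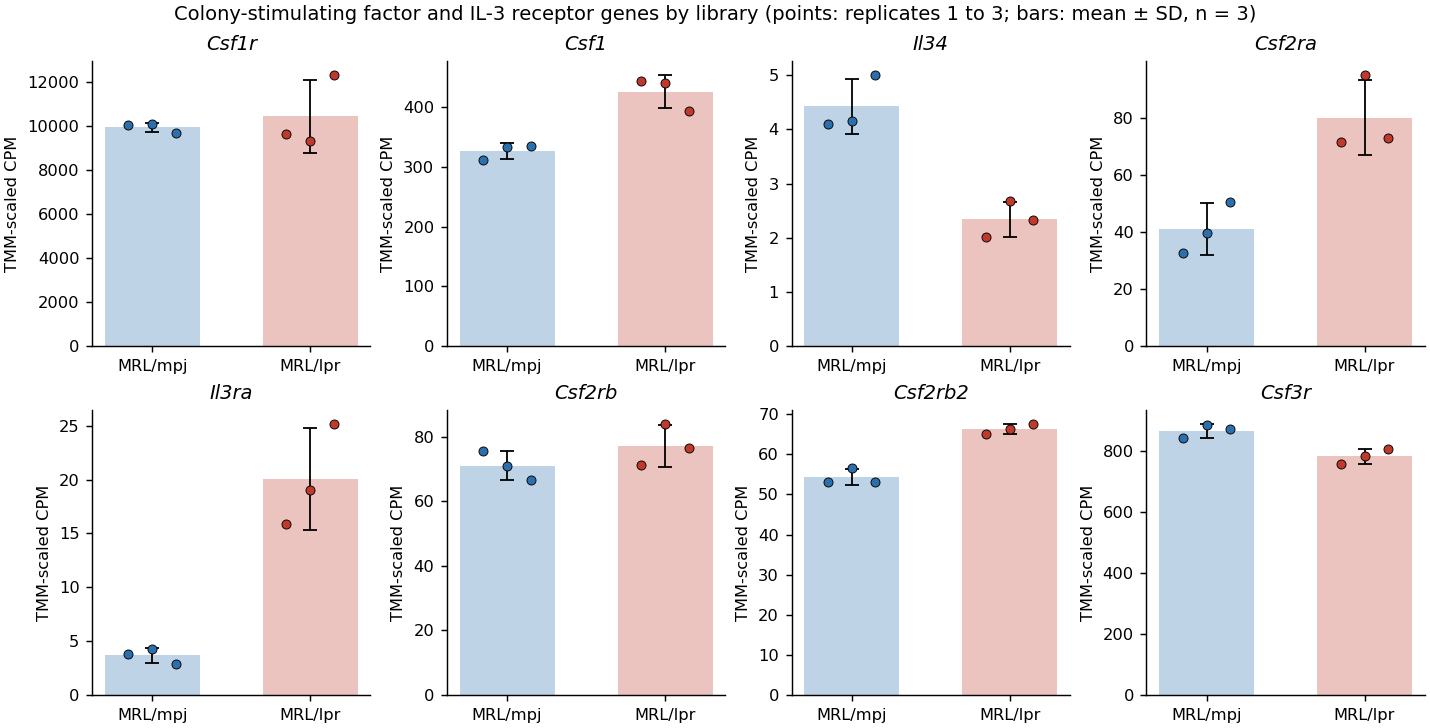
Level of each of the 8 genes in every library, in TMM-scaled CPM on linear axes that start at 0, with libraries as points and the mean ± SD of each strain (n = 3) as a bar. Il3ra separates the strains most widely, with MRL/lpr libraries at 15.9 to 25.2 CPM and MRL/mpj libraries at 2.92 to 4.30 CPM, while the points of Csf1r and Csf2rb overlap.

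**Figure D2:**
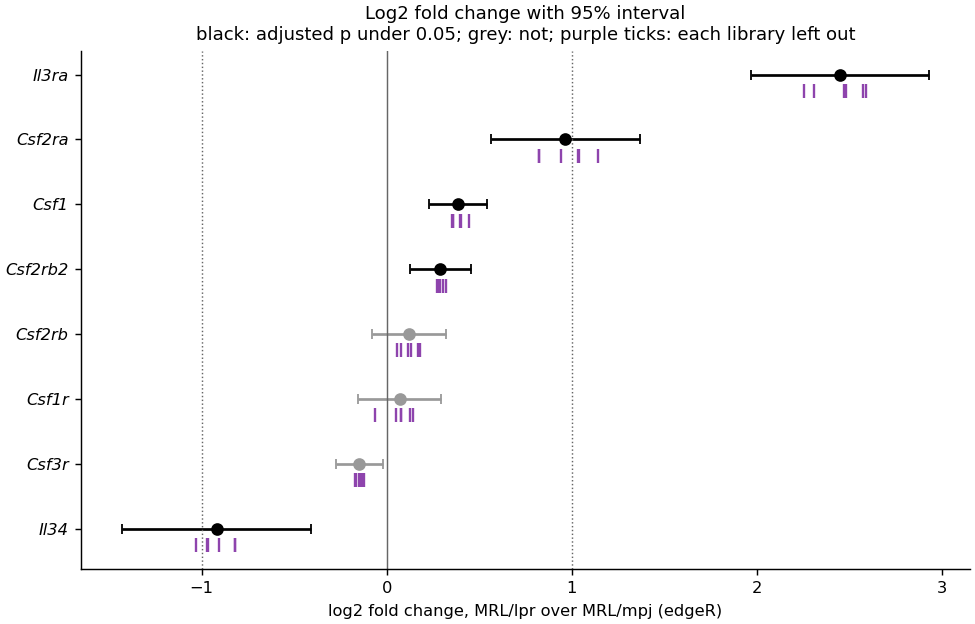
Log2 fold change of each gene, MRL/lpr minus MRL/mpj, from edgeR, with its 95% confidence interval in black where the adjusted p is under 0.05 and in grey otherwise, and purple ticks for the values with each library left out. The interval of Il3ra runs from 1.97 to 2.93, the interval of Il34 lies below 0, and those of Csf1r and Csf2rb span 0.

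Depth was similar across libraries, with 45481609 to 49846634 counts each, and the 8 genes took 1.06% to 1.27% of them. Counts piled up at multiples of 4, so a low count may stand for fewer read pairs than its number. All 10 microglia markers examined were detected, Sparc and Tmem119 among them. Their summed level was 16281 to 18786 CPM in MRL/lpr libraries and 21474 to 21826 CPM in MRL/mpj libraries. By the same test 4 of 10 were lower and none higher, or 40% passing against 20.2% of all genes tested. Fcrls was the 1 marker of these called differentially expressed, at a log2 fold change of -1.76 (adjusted p = 1.61e-07). Cx3cr1 stood apart in MRL/lpr replicate 2, at 2818 CPM against 226 and 247 CPM in the other MRL/lpr libraries. That value is part of the summed level. Olfml3 stood apart in MRL/mpj replicate 1, at 503 CPM against 1376 and 1332 CPM in the other MRL/mpj libraries. Fas itself had 282 to 461 counts in MRL/lpr libraries and 362 to 432 counts in MRL/mpj libraries (log2 fold change -0.06, adjusted p = 0.887). A count per gene does not tell mutant from intact Fas transcripts. Several features set the strains or single libraries apart. MRL/lpr replicate 3 gave 6.38% of its counts to CT010467.1, a gene that took at most 0.458% of the counts elsewhere. The mitochondrial share of counts was 3.06% to 3.49% in MRL/lpr and 5.84% to 6.38% in MRL/mpj. All 5 choroid plexus markers, led by Ttr, Kl and Clic6, were lower in MRL/lpr, with a summed level of 350 to 361 CPM against 1049 to 1132 CPM. Xist, the RNA that silences an X chromosome in female cells, had 8886 to 11319 counts in MRL/lpr libraries and 27 to 38 counts in MRL/mpj libraries, while 4 genes of the Y chromosome together held 8408 to 15046 counts in each library. The labels give no sex. The study's methods describe female mice, whereas transcripts of the Y chromosome were counted in every library. A difference in sex between the libraries cannot be told apart from the strain.

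Csf1r (ENSMUSG00000024621, chr18:61100598-61132149 on GRCm38, plus strand) was by far the most abundant of the 8 genes. It reached 9647, 9335 and 12340 CPM in MRL/lpr replicates 1, 2 and 3, and 10040, 10090 and 9696 CPM in MRL/mpj replicates 1, 2 and 3. The third MRL/lpr library stood above all others and its 2 companions stood below all MRL/mpj libraries, so the strains overlapped. The means were 10441 ± 1653 CPM and 9943 ± 214 CPM (SD, n = 3 each), with a log2 fold change of 0.07 (SE 0.10, adjusted p = 0.694). The 95% confidence interval of the fold change was 0.899 to 1.23, so the fit leaves room for a modest difference in either direction. MRL/lpr replicate 3 decided the sign, since the log2 fold change was -0.06 without it, and scaling by library size only also gave -0.06. In raw counts this 1 gene took 0.912% to 1.14% of each library. Csf1r shares its locus with Hmgxb3 on the opposite strand, which had 2291 to 3152 counts per library. How the counting treated strand is not given in the sources used here, and the counts of Hmgxb3 were far below those of Csf1r.

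Csf1 (ENSMUSG00000014599, chr3:107741048-107760469, minus strand), the ligand through which CSF1R maintains macrophages in many tissues, was measured at 445, 441 and 394 CPM in MRL/lpr libraries and at 312, 333 and 335 CPM in MRL/mpj libraries. Every MRL/lpr library lay above every MRL/mpj library, and the spread within each strain was small. The log2 fold change was 0.38 (SE 0.07, adjusted p = 0.00367), or 1.31-fold with a 95% confidence interval of 1.17 to 1.45. On the log2(FPKM + 0.1) scale the direction was the same, but the difference of 0.26 did not pass (adjusted p = 0.0695 from limma).

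Il34 (ENSMUSG00000031750, chr8:110741829-110805924, minus strand), the second ligand of CSF1R, went the other way. It had 95, 126 and 97 counts in MRL/lpr libraries and 211, 208 and 261 counts in MRL/mpj libraries, which is 2.02, 2.68 and 2.32 CPM against 4.10, 4.16 and 5.01 CPM. The strains did not overlap, although these are low counts. The log2 fold change was -0.92 (SE 0.23, adjusted p = 0.019), with a 95% confidence interval of -1.43 to -0.41. Il34 no longer passed the test when MRL/lpr replicate 1 was left out (adjusted p = 0.0643) or MRL/mpj replicate 3 was (adjusted p = 0.0792). Markers of neurons are given beside it. The 9 neuronal markers were led by Stmn2, Snap25 and Slc17a7. Their summed level was 25.1 to 29.2 CPM in MRL/lpr libraries and 41.4 to 48.7 CPM in MRL/mpj libraries. By the same test 2 of the 9 were lower (Snap25 and Syt1), none was higher and 7 did not pass. The share passing was 22.2%, near the 20.2% of all genes tested. Among those not passing, Stmn2 (log2 fold change -0.28, adjusted p = 0.177) and Slc17a7 (-0.44, adjusted p = 0.377) overlapped between the strains. Rbfox3 and Gad2 had 0 counts in at least 1 MRL/lpr library, and no marker of the list was at 0 throughout. The part of neuronal RNA in the level of Il34 was not tested. In bulk RNA, fewer cells of a type and less RNA per cell cannot be told apart.

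Within a library, the level of Csf1 relative to Il34 combined both differences. In FPKM, which divide counts by gene length as well as depth, the ratio of Csf1 to Il34 was 82.5, 61.7 and 64.1 in MRL/lpr libraries and 28.4, 30.1 and 24.9 in MRL/mpj libraries. The groups were well apart, with a 2.48-fold difference between the geometric means. With 3 libraries against 3, a two-sided exact permutation test cannot give a p under 0.1, and this ratio reached that value (adjusted p = 0.15 over 6 ratios).

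Il3ra (ENSMUSG00000068758, chr14:14346275-14356011, plus strand) had 748, 897 and 1053 counts in MRL/lpr libraries and 195, 215 and 152 counts in MRL/mpj libraries. Scaled, these are 15.9, 19.1 and 25.2 CPM against 3.79, 4.30 and 2.92 CPM. The lowest MRL/lpr library lay several times above the highest MRL/mpj library. The log2 fold change was 2.45 (SE 0.21, adjusted p = 5e-05), with a 95% confidence interval of the fold of 3.91 to 7.63. Of the genes tested, 3.01% had a larger absolute log2 fold change, and Il3ra was at rank 370 by adjusted p. It passed under each of the 19 alternatives fitted, and its log2 fold change stayed between 1.65 and 2.59. The antisense gene Gm48860 overlaps the locus but had at most 6 counts in any library, against at least 152 for Il3ra. Of the 7 other tested genes within 500 kb of Il3ra, a distance chosen after the values were seen, 1 was higher, none was lower and none was differentially expressed.

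IL-3 receptors are a known feature of basophils and mast cells, so markers of those cells are given beside Il3ra. The summed level of the 9 markers was 3.85 to 5.81 CPM in MRL/lpr libraries and 2.45 to 4.11 CPM in MRL/mpj libraries, led by Kit, Prss34 and Mcpt8. Only 4 of the 9 had enough counts to be tested, and 1 of them, the mast cell protease gene Tpsb2, was higher, with 12 to 17 counts in MRL/lpr libraries and 0 in MRL/mpj libraries. Kit (-0.08), Mcpt8 (-0.18) and Prss34 (0.90), given as log2 fold changes, did not pass. Ms4a2 was level, with 12, 0 and 0 counts in MRL/lpr libraries against 0, 12 and 0 in MRL/mpj libraries. Fcer1a and Cma1, defining genes of these cells, had 0 counts in MRL/mpj libraries and at most 6 counts in any MRL/lpr library. Cpa3 and Mcpt4, protease genes of mast cells that were also too low to be tested, had 8, 22 and 8 counts against 4, 0 and 0, and 0, 19 and 19 counts against 4, 0 and 0. The 7 markers of dendritic cells summed to 36.8 to 40.5 CPM and 26.6 to 31.3 CPM, with 1 of 7 higher and none lower. That is 14.3% passing, against 20.2% of all genes tested. Ccr7 was the higher one (log2 fold change 0.86), while Flt3 (-0.77) and Clec9a (-1.56) leaned the other way and did not pass. Markers of T and NK cells summed to 12.1 to 15.4 CPM and 3.14 to 4.51 CPM. Of these, 4 of 7 were higher and none lower (Nkg7, Cd8a, Cd4 and Cd3e), or 57.1% passing. The part of these cell types in the level of Il3ra was not tested.

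Over the 6 libraries, the genes whose levels followed Il3ra most closely were Gm11696, Ppfia4 and Cdca2. Likeness was measured as the root mean square difference of log2 CPM centred on each gene's own mean, which was 0.145, 0.146 and 0.151 for these genes. Their log2 fold changes were 2.64, 2.57 and 2.27, near that of Il3ra, as this measure requires. Ppfia4 was the most abundant of them, at 332 CPM in MRL/lpr libraries and 56.1 CPM in MRL/mpj libraries. The closest genes to Csf1r by the same measure were Gm4735, Ctdsp1 and Lman2, at 0.0221, 0.0227 and 0.0229, and none of them passed the test between strains.

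Csf2ra (ENSMUSG00000059326, chr19:61223957-61228429, minus strand), the other alpha chain of the family, gave 71.6, 95.1 and 73.0 CPM in MRL/lpr libraries and 32.6, 39.7 and 50.5 CPM in MRL/mpj libraries. The groups did not overlap, but the MRL/mpj values were spread widely, with replicate 3 well above replicate 1. The log2 fold change of 0.97 (SE 0.17, adjusted p = 0.00559) fell just short of the 1 needed to be called differentially expressed, and its 95% confidence interval was 0.56 to 1.37. Leaving out single libraries moved it from 0.82 to 1.14, across that limit, with the adjusted p at most 0.0346. Of the 8 other tested genes within 500 kb of Csf2ra, 2 were lower and none was higher.

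Csf2rb (ENSMUSG00000071713, chr15:78325752-78353847, plus strand) and Csf2rb2 (ENSMUSG00000071714, chr15:78282507-78305721, minus strand), the beta chains, lie 20030 bases apart and point in opposite directions. Their coding sequences of 2688 and 2634 bases are 95.2% identical, with 125 differing bases among 2628 aligned ones, so their counts depend on how reads were told apart. To show how much sequence does that, the stretch of 90 bases with the most differences (16) is printed first, at coding positions 308 to 397 of Csf2rb and 311 to 400 of Csf2rb2, and then a stretch with the median number of differences (3), at 1515 to 1604 and 1512 to 1601. Positions are counted from 1 at the A of the start codon, the sequences are those of GENCODE M21 transcripts on GRCm38 and not of the MRL strains, and capitals mark the bases that differ between the genes.
Csf2rb, most different stretch: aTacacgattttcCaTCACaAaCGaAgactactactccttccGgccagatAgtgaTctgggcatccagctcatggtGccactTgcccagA
Csf2rb2, most different stretch: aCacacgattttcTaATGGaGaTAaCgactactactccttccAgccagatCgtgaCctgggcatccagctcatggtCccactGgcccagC
Csf2rb, median stretch: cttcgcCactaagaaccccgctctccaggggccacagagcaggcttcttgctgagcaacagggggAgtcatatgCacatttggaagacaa
Csf2rb2, median stretch: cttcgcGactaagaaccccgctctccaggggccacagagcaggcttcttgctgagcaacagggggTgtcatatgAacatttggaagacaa

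Most stretches of the length of a read are found in only 1 of the beta chain genes. Of all 150-base windows in the transcripts with the longest coding sequence, 3.47% of those of Csf2rb and 3.59% of those of Csf2rb2 occur exactly in the other gene, while none of those of the other 6 genes occurs in any other gene. At 75 bases the shares were 10.7% and 11.1%, and 3.20% of the windows of Csf3r also occurred in other genes. How reads with more than 1 match were counted is not given in the sources used here, so the values of each beta chain carry this uncertainty.

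Csf2rb, the common beta chain, was found at 71.2, 84.1 and 76.5 CPM in MRL/lpr libraries and at 75.6, 70.9 and 66.7 CPM in MRL/mpj libraries. These ranges overlapped, and the log2 fold change of 0.12 (SE 0.09, adjusted p = 0.404) had a 95% confidence interval of -0.08 to 0.32 and was near 0 with scaling by library size only. Csf2rb2, the chain that serves IL-3, was found at 65.0, 66.3 and 67.6 CPM and at 53.2, 56.6 and 53.0 CPM. Its groups did not overlap and were both narrow, and it was higher in MRL/lpr libraries by a log2 fold change of 0.29 (SE 0.07, adjusted p = 0.022). That test result was not stable. With a single library left out, the adjusted p rose to as much as 0.0883 and stayed under 0.05 only without MRL/lpr replicate 3. The log2 fold change itself stayed at 0.27 to 0.32 in those fits, which have fewer libraries. With scaling by library size only it was 0.17 (adjusted p = 0.165 from edgeR). With the counts of both genes summed, the log2 fold change was 0.20 and the adjusted p was 0.081.

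Ratios between the receptor chains were compared within each library. The ratio of Il3ra to Csf2rb in FPKM was 0.547, 0.555 and 0.806 in MRL/lpr libraries and 0.122, 0.148 and 0.107 in MRL/mpj libraries, a 5.03-fold difference. That of Csf2ra to Csf2rb was 2.55, 2.87 and 2.42 against 1.09, 1.42 and 1.92, a 1.81-fold difference. Neither ratio overlapped between the strains, and the exact permutation test gave its smallest possible p of 0.1 for each (adjusted p = 0.15). The alpha chains were also set against each other. The ratio of Il3ra to Csf2ra was 0.215, 0.194 and 0.333 against 0.112, 0.104 and 0.0556, a 2.78-fold difference with the same p. For Csf2rb2 to Csf2rb the ratio was 1.40, 1.21 and 1.36 against 1.08, 1.22 and 1.22, which overlapped (exact permutation p = 0.3).

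**Figure D3:**
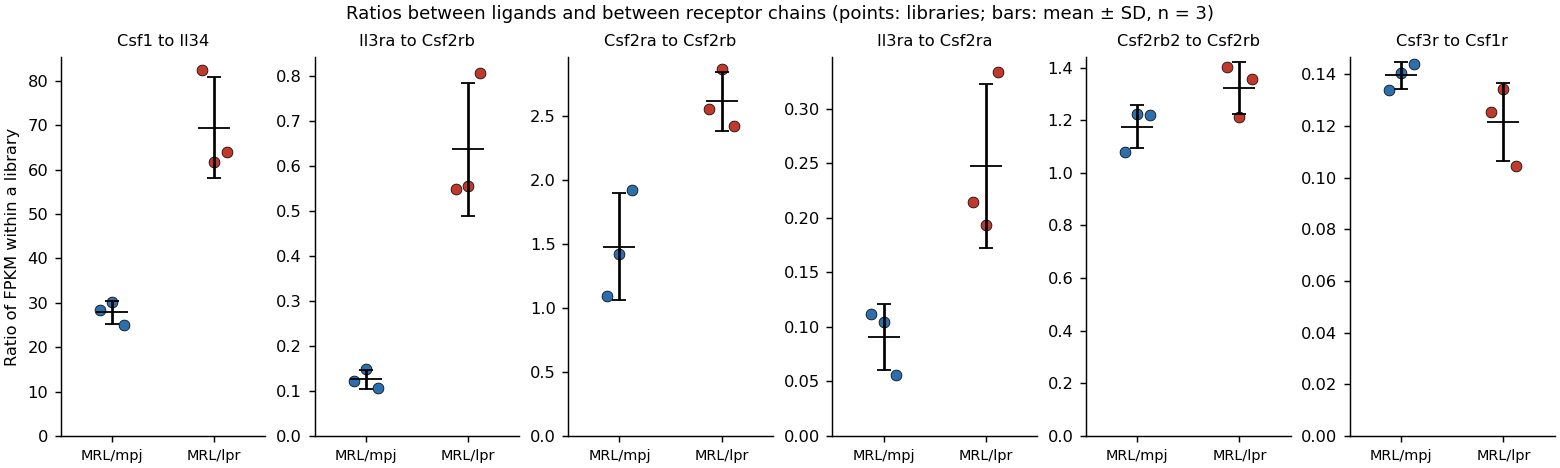
Ratio of one gene to another within each library, from FPKM, on linear axes that start at 0, for 6 pairs of genes, with points for libraries and bars for the mean ± SD (n = 3). The ratios of Csf1 to Il34, Il3ra to Csf2rb, Csf2ra to Csf2rb and Il3ra to Csf2ra do not overlap between the strains, while those of Csf2rb2 to Csf2rb and Csf3r to Csf1r do.

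Csf3r (ENSMUSG00000028859, chr4:126024550-126044440, plus strand), the G-CSF receptor, was measured at 757, 784 and 807 CPM in MRL/lpr libraries and at 842, 886 and 873 CPM in MRL/mpj libraries. No MRL/lpr library reached the lowest MRL/mpj library. The difference was small, with a log2 fold change of -0.15 (SE 0.06, 95% confidence interval -0.27 to -0.02), and it did not pass the adjusted test (unadjusted p = 0.0267, adjusted p = 0.101). It depended on the scaling, for with library size alone the log2 fold change was -0.27 and the adjusted p was 0.00972. It also passed when MRL/lpr replicate 3 was left out (adjusted p = 0.0124). Neutrophils, in which this receptor is best known, were also examined. The 10 neutrophil markers were led by Ngp, S100a9 and Ltf. They summed to 754 to 884 CPM in MRL/lpr libraries and to 596 to 663 CPM in MRL/mpj libraries. By the same test 4 of 10 were higher and none lower, or 40% passing against 20.2% of all genes tested. The summed markers were thus higher in each MRL/lpr library than in any MRL/mpj library, where Csf3r was the reverse, and their part in its level was not tested. The ratio of Csf3r to Csf1r, at 0.125, 0.134 and 0.105 against 0.134, 0.140 and 0.144, overlapped (exact permutation p = 0.2).

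Levels were compared between genes in FPKM, the values per gene length. In the MRL/lpr libraries the order from the highest was Csf1r (1543 ± 192 FPKM), Csf3r (186 ± 3.35), Csf1 (69.3 ± 6.70), Csf2ra (23.8 ± 4.33), Csf2rb2 (11.97 ± 0.211), Csf2rb (9.09 ± 0.846), Il3ra (5.75 ± 1.17) and Il34 (1.01 ± 0.151), with SD and n = 3, and no neighbours in this order overlapped. In the MRL/mpj libraries the first 6 places were the same, with Csf1r at 1603 ± 34.4, Csf3r at 224 ± 6.02, Csf1 at 57.6 ± 2.35, Csf2ra at 13.3 ± 2.93, Csf2rb2 at 10.7 ± 0.396 and Csf2rb at 9.09 ± 0.565 FPKM. Below them, Il34 at 2.08 ± 0.248 stood above Il3ra at 1.14 ± 0.217 FPKM, the reverse of MRL/lpr. Csf2ra and Csf2rb2 were the only neighbours whose ranges overlapped in MRL/mpj libraries. The order of the 2 beta chains rests on the gene length used. All annotated exons together cover 7277 bases in Csf2rb and 4740 in Csf2rb2. Before division by length Csf2rb was the higher one, at means of 77.3 against 66.3 CPM in MRL/lpr and 71.1 against 54.2 CPM in MRL/mpj. The highest gene exceeded the lowest 1528-fold in MRL/lpr libraries and 1402-fold in MRL/mpj libraries.

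**Figure D4:**
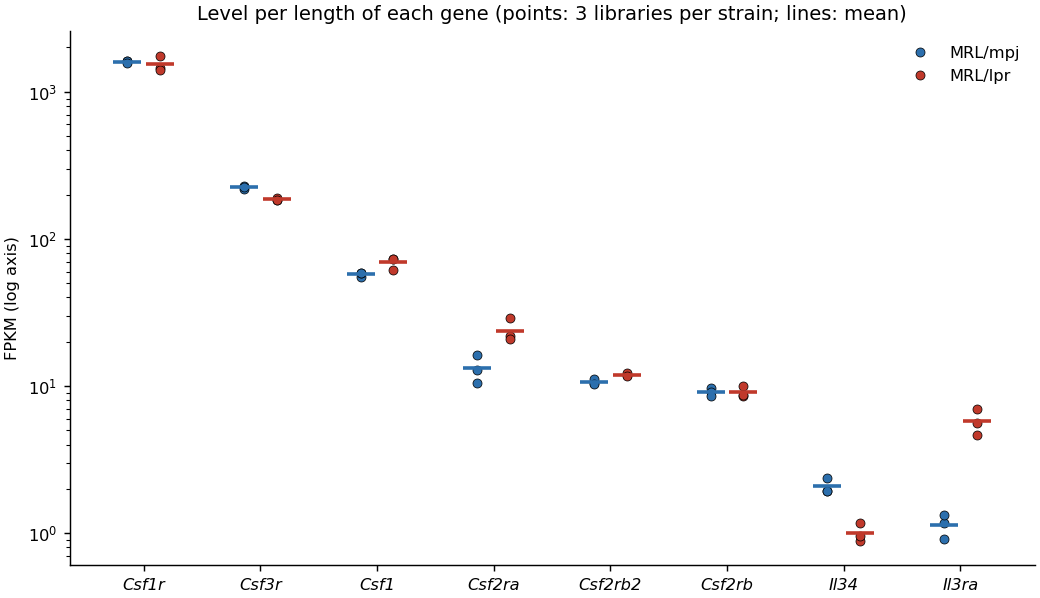
FPKM of the 8 genes on a log axis, with a point for each of the 3 libraries per strain and a line at the mean of each strain. Csf1r leads at 1543 and 1603 FPKM, and Il3ra and Il34 trade the last places between MRL/lpr and MRL/mpj.

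Apart from Csf1 and Il34, the cytokine genes of this family were close to or under the limit of detection. Il3 and Il5, the genes of IL-3 and IL-5, and Il5ra, the IL-5 receptor alpha chain, had 0 counts in every library, which allows up to 3 counts, or 0.0576 to 0.0717 CPM, for counting error only and more where 1 read pair stands for several counts. Csf2, the gene of GM-CSF, had 3, 0 and 0 counts in MRL/lpr libraries and 7, 12 and 0 counts in MRL/mpj libraries and was too low to be tested. Csf3, the gene of G-CSF, had 20, 33 and 37 counts against 8, 10 and 17, with a log2 fold change of 1.55 (SE 0.66, adjusted p = 0.14). The IL-34 co-receptors Ptprz1 and Sdc1 did not pass the test, with log2 fold changes of -0.46 (adjusted p = 0.396) and -0.04 (adjusted p = 0.941).

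Over all pathway lists, which hold the ligands and co-receptors above, signalling genes, transcription factors and response genes, 55 further genes were tested, of which 18 were higher, 2 were lower and 35 did not pass, or 36.4% passing against 20.2% of all genes tested. Their median log2 fold change was 0.21. On the list for JAK2 and STAT5 signalling, which is not particular to the beta chains, 7 of 15 genes were higher and none was lower. The share passing was 46.7%, against 20.2% of all genes tested. Pim1, a survival kinase induced by STAT5, was the 1 called differentially expressed, at 193 ± 19.3 CPM against 54.3 ± 8.12 CPM (log2 fold change 1.83, adjusted p = 7.81e-06). The 4 most abundant, all higher, were the feedback inhibitor Socs3 (0.38), the survival factor Mcl1 (0.71), the kinase Jak1 (0.53) and the cytokine Osm (0.77), given as log2 fold changes. Cish, a classical STAT5 target named after its values were seen, was higher by 0.94 (adjusted p = 0.000305). Jak2, Stat5a and Stat5b themselves did not pass, at log2 fold changes of 0.09, 0.31 and 0.09 (adjusted p = 0.586, 0.0939 and 0.553).

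For CSF1R signalling, 5 of 23 genes were higher, 1 was lower, 17 did not pass and none was differentially expressed. The share passing was 26.1%, near the 20.2% of all genes tested. Among the higher ones, named after their values were seen, were the Src-family kinase Fyn (log2 fold change 0.44), the PI3-kinase subunit Pik3r1 (0.66) and the adaptors Gab2 (0.50) and Shc1 (0.38). Tyrobp, an adaptor that carries signals of CSF1R and of other myeloid receptors, was the lower one, at -0.35 (adjusted p = 0.0177). Inpp5d, Lyn and Plcg2, the most abundant of the list, did not pass, at log2 fold changes of 0.18, 0.04 and 0.21.

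Of the 8 transcription factors that drive expression of these receptors in myeloid cells or act below them, 4 were higher and none was lower. That is 50% passing, against 20.2% of all genes tested. Cebpb was differentially expressed, at 219 ± 7.56 CPM against 103 ± 5.21 CPM (log2 fold change 1.08, adjusted p = 6.64e-06). Spi1, which encodes PU.1, Cebpa and Irf8 did not pass, at 0.17, 0.15 and 0.35 (adjusted p = 0.212, 0.126 and 0.602). Genes that GM-CSF is known to induce in myeloid cells moved in both directions. Of 7 tested, 2 were higher, 1 was lower and 4 did not pass, Csf2rb among the last. The share passing was 42.9%, against 20.2% of all genes tested. The higher ones were Cd74, the chaperone of MHC class II molecules (log2 fold change 2.13, adjusted p = 1.06e-07), and Clec7a, the beta-glucan receptor Dectin-1 (1.78, adjusted p = 6.05e-05). Itgax, which encodes CD11c, was lower by a log2 fold change of -1.72 (adjusted p = 1.95e-06). Irf4 did not pass, at -0.23 (adjusted p = 0.157).

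**Figure D5:**
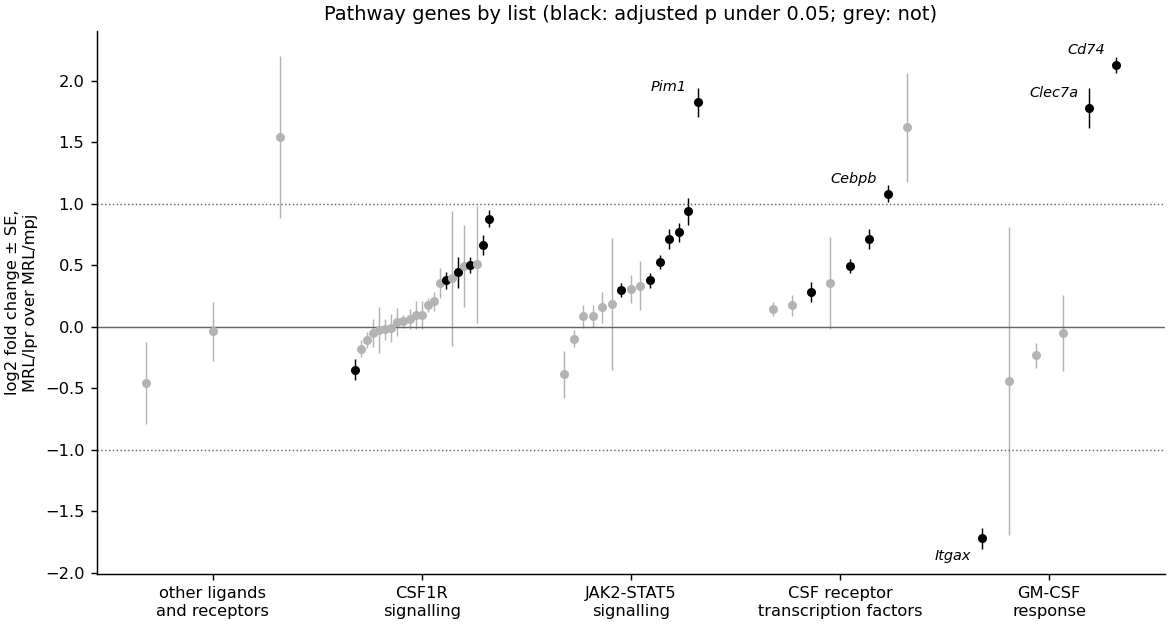
Log2 fold change, MRL/lpr minus MRL/mpj, of each tested gene in the pathway lists, grouped by list, with bars of 1 SE, in black where the adjusted p is under 0.05 and in grey otherwise. Pim1, Cebpb, Cd74 and Clec7a pass and lie above 1, Itgax passes and lies below -1, Ets1 and Csf3 lie above 1 without passing, and most CSF1R signalling genes lie near 0.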

How the data were processed

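Microglia from MRL/lpr and MRL/mpj brains were sequenced as paired reads of 150 bases, 3 libraries per strain. Per the labels, ribosomal RNA was removed and stranded libraries were made, and the submitters' processing notes name cutadapt 1.9.3, HISAT2 2.0.4, Cufflinks, Cuffdiff 2.2.1 and GRCm38. The files the authors deposited hold raw counts, in whole numbers for each gene, and FPKM per library, which divide counts by gene length and depth. The counting tool and its annotation are not given in the sources used here. GENCODE M21 on GRCm38 matched 55141 of 55401 identifiers to symbols.

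Counts were filtered (filterByExpr, minimum count 10, minimum total 15), scaled by TMM and tested with edgeR 4.0.16 in R 4.3.3 (robust quasi-likelihood test, Benjamini-Hochberg adjustment over 19554 genes, no covariates, common BCV 0.26). Depth ran from 45481609 to 49846634 counts per library. Replicates of a strain differed by more than sampling noise, with a median squared difference of 4.13 to 10.7 times the Poisson variance. Ratios between genes were tested by exact permutation (scipy 1.17.1), and coding sequences were aligned with Biopython 1.88.

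Genes named are the 8 listed, the other ligands and receptors, in each pathway list those called and the 4 most abundant, up to 3 leading markers per cell type, and the 3 genes most like Il3ra and Csf1r. A few genes that this rule covers are not reported here. The genes and lists were chosen with earlier results of these data known. The steps were tested on simulated counts drawn with a single dispersion for all genes. Those counts did not copy the pile-up at multiples of 4, so that test does not cover it. Alternatives were DESeq2 1.42.0, other scalings and filters, dispersions that are not robust, counts divided by 4, glmTreat, limma 3.58.1 on log2(FPKM + 0.1) and log2(FPKM + 1), a replicate block, each library left out, and, added after seeing the data, CT010467.1 left out.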

Additional observations from a re-analysis of the deposited data

How the results depend on the processing

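Il3ra passed at each of 19 alternatives. Over all genes, 1630 were called differentially expressed, 914 higher and 716 lower. A test against the fold itself (glmTreat) called 616, of which 379 were higher and 237 lower, and FPKM with a pseudocount of 1 called 614, of which 351 were higher and 263 lower. Leaving out single libraries gave 1398 to 1650. Scaling by library size only moved the median log2 fold change of all genes from -0.01 to -0.13 and gave 766 higher and 932 lower.

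With library size only, FPKM with a pseudocount of 0.1 and FPKM with a pseudocount of 1, the log2 fold change of Csf1r turned to -0.058, -0.062 and -0.062, and that of Csf2rb to -0.0022, -0.0021 and -0.0018. Csf3r passed under these 3, at -0.27 in each. Csf2rb2 no longer passed under them, at 0.17, 0.17 and 0.15, and Csf1 did not pass under both FPKM fits, at 0.26 in each. With glmTreat, Csf1 (0.38), Il34 (-0.92), Csf2ra (0.97) and Csf2rb2 (0.29) did not pass, leaving 1 of the 8 genes higher and 0 lower, with 3 further pathway genes higher and 1 lower. Under the FPKM fits 2 of the 8 were higher and 2 lower, and library size only gave 2 lower and 2 called. Pathway genes passing as lower were 4 under these scalings, against 2. The causes were not tested.

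Leaving out each library gave log2 fold changes of -0.063 to 0.14 for Csf1r, -1.03 to -0.82 for Il34, 0.27 to 0.32 for Csf2rb2 and -0.17 to -0.12 for Csf3r, which passed only without MRL/lpr replicate 3. Of the 8 genes, 1 to 2 were called and 0 to 2 passed as lower, and 1 to 3 pathway genes passed as lower.

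No pairing by replicate number was seen, as correlations of same-numbered deviations were -0.041, -0.020 and -0.033. With deviations from means of 3 libraries, these values cannot show that same-numbered libraries were prepared independently. With the replicate block, 1422 genes were called, Csf2rb2 no longer passed (0.29, adjusted p = 0.0728) and 1 pathway gene was lower. Low counts limit what can be said of Il34 and of the other cytokine genes.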
